A study of Mus musculus with 6 samples.

Results

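Genes of the 2-cell-like state were examined in mouse embryonic stem cells given an shRNA vector against Chd9 (shChd9) or a control transfection. The genes were Zscan4c, Zscan4d, Zscan4f, Tcstv1, Tcstv3, Zfp352, Tdpoz4, Usp17lc, Tmem92 and Arg2, taken as all probes that the platform's annotation gives to these 10 names. Probes were found for 8 of them, 10 probes in all, out of 34885 probes with 1 gene name on an array of 45281. The names Zscan4d and Zscan4f have no probe of their own in that annotation. Each group held 3 samples of total RNA, with 1 Illumina bead array per sample. All cells, controls included, grew in medium with 15% foetal bovine serum and saturating leukemia inhibitory factor on embryonic fibroblasts whose division mitomycin C had blocked. Vectors went in by electroporation, and puromycin was applied 24 h later for 48 h in the protocol given for both groups. The labels do not name the ES cell line, the control vector or the hairpin sequence, and do not say whether the 3 samples of a group were separate cultures, so p-values may measure technical spread. The labels mention no removal of the feeders. In bulk RNA, fewer cells in the 2-cell-like state and less RNA per such cell cannot be told apart.

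In serum cultures a small fraction of mouse ES cells passes for a time through a state that resembles the 2-cell embryo, the stage at which the mouse zygotic genome is activated. The transcription factor Dux and endogenous retroviral promoters of the MERVL family drive many genes of this state, and several chromatin factors hold them silent in the other cells. Zscan4 proteins, zinc finger proteins with a SCAN domain, are its classic markers and are linked to telomere maintenance. Many of these genes lie in arrays of near-identical copies, so a probe named for 1 copy can bind the transcripts of others.

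The Zscan4 promoters are printed to show how alike they are between copies, among which only Zscan4c has probes under its own name. RefSeq (GRCm38.p6) lists 9 Zscan4 genes and pseudogenes, all on chromosome 7, of which 4 are protein coding. Each sequence runs 5′ to 3′ along the gene, from 250 bases before to 50 bases after its start. Zscan4c lies at chr7:11005495-11005794 on the plus strand, Zscan4d at chr7:11166099-11166398 on the minus strand and Zscan4f at chr7:11397665-11397964 on the plus strand. Capitals mark the bases of Zscan4d and Zscan4f that differ from Zscan4c where they overlap without gaps.
Zscan4c: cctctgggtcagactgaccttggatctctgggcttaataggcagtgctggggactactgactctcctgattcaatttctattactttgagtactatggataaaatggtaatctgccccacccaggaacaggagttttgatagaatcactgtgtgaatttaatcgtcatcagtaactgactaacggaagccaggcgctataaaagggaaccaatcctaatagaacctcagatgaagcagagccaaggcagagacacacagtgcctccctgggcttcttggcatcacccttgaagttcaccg
Zscan4d: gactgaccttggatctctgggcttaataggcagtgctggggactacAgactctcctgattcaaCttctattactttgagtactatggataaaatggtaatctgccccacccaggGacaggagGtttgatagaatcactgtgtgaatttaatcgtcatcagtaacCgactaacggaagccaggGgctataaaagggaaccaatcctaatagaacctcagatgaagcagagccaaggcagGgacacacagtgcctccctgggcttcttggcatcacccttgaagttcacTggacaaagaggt
Zscan4f: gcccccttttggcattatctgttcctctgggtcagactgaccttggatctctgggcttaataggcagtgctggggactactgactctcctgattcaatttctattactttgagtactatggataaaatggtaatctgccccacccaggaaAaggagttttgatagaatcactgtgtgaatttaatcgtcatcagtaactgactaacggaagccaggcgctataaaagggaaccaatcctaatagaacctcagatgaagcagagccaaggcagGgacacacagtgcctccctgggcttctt
Zscan4d differed from Zscan4c at 8 of 289 shared bases (97.2% identity), and Zscan4f at 2 of 277 (99.3% identity). Zscan4d and Zscan4f differed at 7 of 266 shared bases (97.4% identity). These windows lie mostly before the start, so their identity does not measure how alike the transcripts are where a probe binds. The probes' own sequences were not used here, so which copies each probe binds was not analysed.

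Promoter windows were found for 6 of the 10 genes, Zscan4c, Zscan4d, Zscan4f, Zfp352, Tdpoz4 and Usp17lc, and not for Arg2, Tcstv1, Tcstv3 and Tmem92. They were searched on both strands for TGATTNAAT followed by CA, a form of the site of mouse Dux. TGATTNAAT alone, which the longer motif contains, and TATAAA, letters of the TATA box, were searched likewise, at any place in the window. The full site was in 0 of the 6 windows and in 0.0335% of all 32851 promoter windows of this length. The shorter form was in 2 of the 6, at base -184 from the start of Zscan4c and at base -161 of Zscan4f, against 0.718% of all windows. In both it read TGATTCAAT. Zscan4c and Zscan4f are near-identical copies, so these are not 2 independent matches. The window of Zscan4d did not hold the shorter form. TATAAA was in 4 of the 6, the 3 Zscan4 genes and Usp17lc, against 13.6% of all windows. Its first base lay at -54 in Zscan4c, -65 in Zscan4d, -31 in Zscan4f and -88 in Usp17lc. Whether any of these serves as a TATA box was not tested. The 3 Zscan4 windows are likewise not independent of each other.

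All 10 probes were detected on at least 3 of the 6 arrays, the minimum for testing, and 9 of them on all 6. Detection means a detection p-value under 0.05 against the array's negative control beads. Levels below are background-corrected, quantile-normalized log2 intensities. Brightness also depends on a probe's sequence, so levels are compared within a probe and not between probes.

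Chd9, the target of the hairpin, was lower on all 3 shChd9 arrays on its bright probes. Chd9 probe ILMN_1235114 measured 7.67, 7.54 and 7.65 in the control group and 6.75, 6.37 and 6.41 in the shChd9 group (log2 intensity), 46.3% of the control level. Probe ILMN_2697954 measured 7.36, 7.74 and 7.80 against 6.56, 6.32 and 6.64, and left 45.8%. The groups did not overlap on either probe, as on 10.3% of all tested probes (limma, adjusted p = 0.540 for both). All arrays were on 1 slide with each group in adjacent places, and place on the slide cannot be told apart from group. Of the dim Chd9 probes, ILMN_1226311 had a log2 fold change of 0.35 ± 0.21 (SE) and ILMN_2600528 was detected on 1 array and not tested. Probes detected per array numbered from 17734 to 18457 and mean raw intensities ranged from 356 to 464.

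The brightest Zscan4c probe, ILMN_3013659, measured 12.00, 12.39 and 13.25 on control arrays 1 to 3 and 11.30, 12.35 and 12.92 on shChd9 arrays 1 to 3 (log2 intensity). The lowest value was on shChd9 array 1 and the highest on control array 3, a 3.85-fold span, and the groups overlapped. The group means were 12.55 ± 0.64 in the control group and 12.19 ± 0.82 in the shChd9 group (SD, n = 3 each), with a log2 fold change of -0.36 ± 0.42 (SE) and a 95% interval of -1.30 to 0.59 (limma, adjusted p = 0.955). The lower end of that interval is a 2.47-fold lower level. The dimmer Zscan4c probe, ILMN_2534628, measured 5.54, 6.13 and 5.92 in the control group and 5.06, 6.28 and 5.73 in the shChd9 group. It too was lowest on shChd9 array 1, but its highest value was on shChd9 array 2 and not on control array 3. Its log2 fold change was -0.18 ± 0.30 (SE).

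Tcstv1 and Tcstv3, members of a mouse 2-cell gene family on chromosome 13 that has been tied to telomere length, followed the bright Zscan4c probe closely. Tcstv1 measured 9.35, 9.52 and 10.60 in the control group and 8.69, 9.92 and 10.29 in the shChd9 group (log2 intensity). Tcstv3 measured 9.29, 10.02 and 10.54 in the control group and 8.51, 9.88 and 10.34 in the shChd9 group. For both genes shChd9 array 1 was lowest and control array 3 highest, with spans of 3.76-fold and 4.08-fold, and the groups overlapped. Tcstv1 had a log2 fold change of -0.19 ± 0.43 (SE), with a 95% interval of -1.17 to 0.79. Tcstv3 had one of -0.37 ± 0.46, with an interval of -1.40 to 0.66. Their names denote similar genes, and binding of each probe to the other's transcript was not tested.

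Tmem92, a gene for a transmembrane protein, spanned the widest range of the 10 probes, 4.56-fold between arrays on probe ILMN_2866742. That probe measured 8.29, 9.49 and 10.14 in the control group and 7.95, 9.02 and 9.85 in the shChd9 group (log2 intensity). The dimmer probe ILMN_1259105 measured 7.74, 8.25 and 9.29 in the control group and 7.18, 7.93 and 8.95 in the shChd9 group. The Tmem92 probes ranked the 6 arrays alike, from shChd9 array 1 at the bottom to control array 3 at the top. Their log2 fold changes were -0.36 ± 0.53 (SE) and -0.41 ± 0.47, with 95% intervals of -1.55 to 0.83 and -1.48 to 0.66.

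Arg2, the mitochondrial arginase that turns arginine into ornithine and urea, measured 6.46, 6.93 and 7.57 in the control group and 6.37, 6.53 and 7.31 in the shChd9 group (log2 intensity). Array 3 was the highest of each group, the groups overlapped, and the log2 fold change was -0.25 ± 0.32 (SE), with a 95% interval of -0.97 to 0.47.

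Zfp352, a zinc finger gene of the early embryo, measured 5.18, 5.33 and 6.24 in the control group and 5.30, 5.33 and 5.67 in the shChd9 group (log2 intensity). Its control array 3 stood above the other 5 arrays, and its log2 fold change was -0.15 ± 0.27 (SE). Tdpoz4, of a family of TRAF-domain and POZ-domain genes, measured 5.75, 6.56 and 6.51 in the control group and 5.73, 6.47 and 6.33 in the shChd9 group. Array 1 was low in each group and the groups overlapped, with a log2 fold change of -0.095 ± 0.27 (SE). Usp17lc, a deubiquitinating enzyme of the DUB family, was near background and detected on 1 control and 2 shChd9 arrays. It measured 4.30, 4.57 and 5.46 in the control group and 4.44, 4.97 and 4.92 in the shChd9 group, with a log2 fold change of -0.0021 ± 0.29 (SE).

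**Figure D1:**
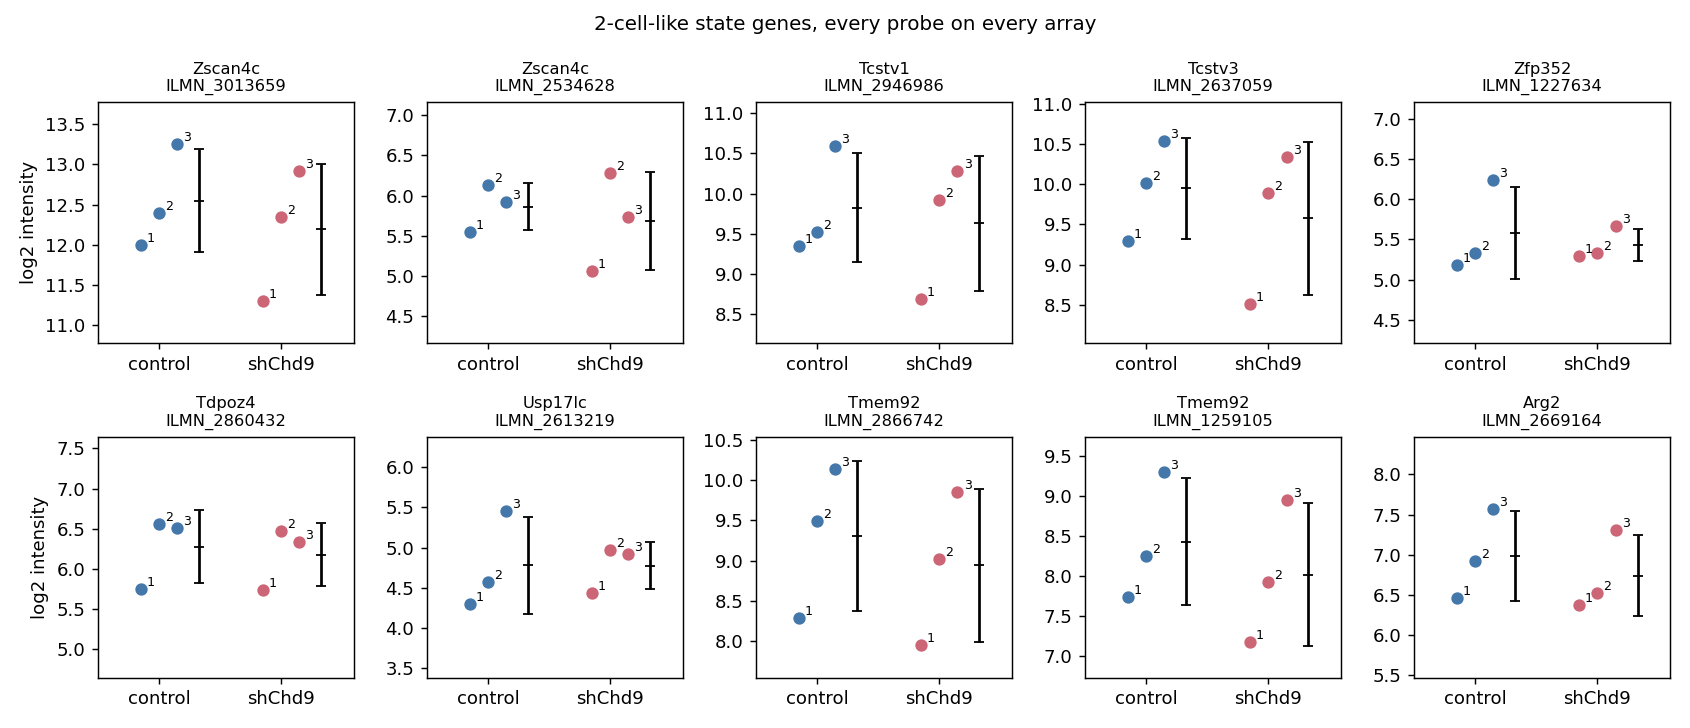
Each panel plots 1 probe, with log2 intensity on the vertical axis (every axis spans 3 log2 units), a numbered point for each array and the mean ± SD of 3 arrays beside each group. In all 10 panels the groups overlap, and array 1 is the lowest control array and, in the shChd9 group, the lowest shChd9 array. Of all tested probes, 35.6% have control array 1 lowest in its group and 36.5% have shChd9 array 1 lowest in its group.

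No difference between control and shChd9 samples passed the test for any probe of these genes. At an adjusted p under 0.05 (limma, Benjamini-Hochberg over the 17719 probes tested), 0 of the 10 probes were called, against a background of 0% of all tested probes. The lowest adjusted p was 0.953, and at an unadjusted p under 0.05 the test again found 0 of 10, against 5.32% of all tested probes. All 10 log2 fold changes were below 0, as were 50.8% of those of all tested probes. Over the 8 genes, each by its brightest probe, the median log2 fold change was -0.22, beside a median of -0.0045 over all 10194 genes tested. Beside this, 26 of 26 tested markers of feeder fibroblasts had a log2 fold change above 0, with a median of 0.39. With their mean on each array as a covariate, the median of the 8 genes was 0.0064, with 4 of 8 below 0. In 0 of the 10 probes were the groups separate, against 10.3% of all tested probes, and each difference was smaller than the pooled SD within groups. The arrays do not settle moderate changes. In the main fit the 95% interval held a 2-fold lower level for 5 of the 10 probes and a 2-fold higher level for 0 of them. These bounds depend on the variance moderation. With trend and robust estimation the SE of the brightest probe was 0.75 for Tmem92 and 0.58 for Zscan4c, against 0.53 and 0.42 here. The 0 therefore does not exclude a 2-fold higher level. The sign of the median also changed with single arrays. Leaving out shChd9 replicate 1 gave 0.13, leaving out control replicate 3 gave 0.043, and leaving out shChd9 replicate 3 gave -0.54.

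**Figure D2:**
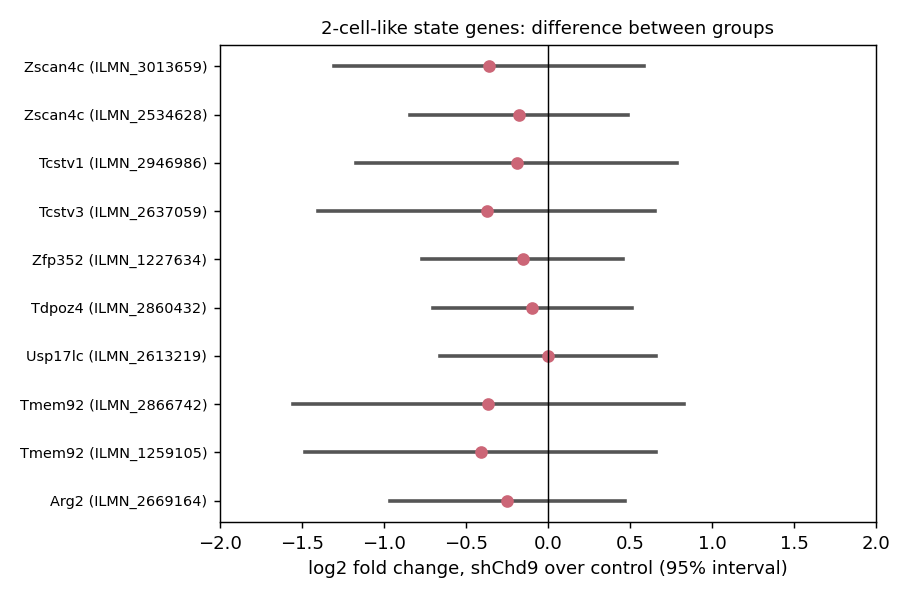
The log2 fold change of shChd9 over control is plotted for each probe as a point, with its 95% interval from limma as a bar (n = 3 arrays each). Every interval crosses 0, and the widest, of Tmem92 probe ILMN_2866742, runs from -1.55 to 0.83.

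The genes varied between arrays of the same group more than they differed between groups. Between the lowest and the highest array, 9 of the 10 probes spanned 2-fold or more, as did 14.9% of all tested probes. Within groups, the pooled SD ran from 0.42 for Tdpoz4 to 0.95 for Tmem92 (log2 intensity), beside a median of 0.23 over all tested probes. The SD of 6 of the 10 probes lay above 0.49, the 95th percentile of tested probes: the bright Zscan4c probe, Tcstv1, Tcstv3, both Tmem92 probes and Arg2. The other 4 were the dim Zscan4c probe, Zfp352, Tdpoz4 and Usp17lc. An offset was added before log2, so the spreads of dim and bright probes are not on equal terms.

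**Figure D3:**
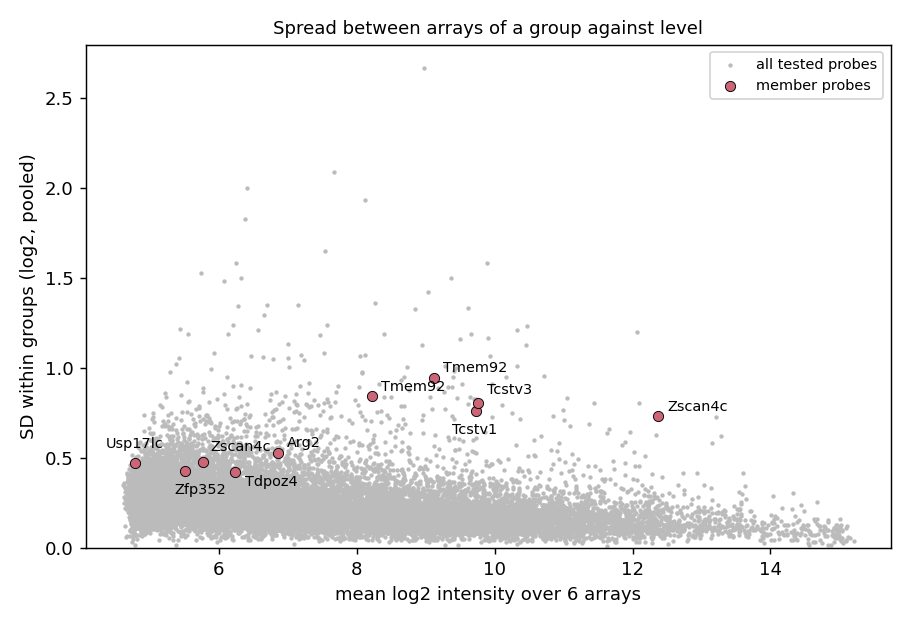
The pooled SD within groups (vertical axis, log2 intensity) is plotted against the mean log2 intensity over 6 arrays for all 17719 tested probes in grey and the 10 member probes in red. The bright Zscan4c probe has an SD of 0.73 and Tmem92 the highest of the 10, 0.95, against a median of 0.23 over all tested probes.

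The genes were high and low on the same arrays. Centred on each gene's own mean, the 8 genes had a median of -0.77 on shChd9 array 1 and -0.44 on control array 1 (log2). On both of these arrays 0 of the 8 genes lay above their mean. Control array 2 and shChd9 array 2 stood in the middle, with medians of 0.045 and 0.051. On shChd9 array 3 and control array 3 the medians were 0.50 and 0.76, and all 8 genes lay above their mean on each. By probe, 8 of 10 were lowest on shChd9 array 1, against 19.9% of all tested probes, and 8 of 10 were highest on control array 3, against 14.8%. Both held for 6 of 10 probes, against 4.55%. The genes were chosen with earlier results of these data known, so these counts are description only. Probes of near-identical copies can share transcripts, so the 10 probes are not 10 independent readings. Arrays of the same number stood close to each other in these medians, but the numbers follow the order of deposit, and the labels do not pair arrays across groups.

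Across the array, the probes whose pattern over the 6 arrays came closest to the bright Zscan4c probe included other 2-cell-like genes. Closeness was the root mean square difference between centred log2 intensities, chosen as a description with no test, and its median over all tested probes was 0.656. The nearest gene was AF067061, at 0.0714, followed by the PRAME-like genes Pramel39 at 0.0866 and Pramel37 at 0.0873. AF067061 measured 11.08, 11.39 and 12.11 in the control group and 10.34, 11.35 and 11.97 in the shChd9 group (log2 intensity). Gm16367 at 0.123, Tcstv1 at 0.129, Mreg at 0.134, Gm13040 at 0.144 and Tcstv3 at 0.148 completed the nearest 8 genes. Mreg encodes melanoregulin, known from pigment granule transport. Of these 8, Tcstv1 and Tcstv3 belong to the 10 genes examined, and AF067061 and Gm16367 to a wider list of 2-cell-like genes. Of the 20 nearest probes, 9 carry no gene name in the annotation. Among the members, the dimmer Tmem92 probe stood at 0.161, Tmem92 probe ILMN_2866742 at 0.259, Arg2 at 0.281, Usp17lc at 0.374, Zfp352 at 0.403 and Tdpoz4 at 0.419. The dim Zscan4c probe was farther from the bright one, at 0.486, than any other member probe.

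**Figure D4:**
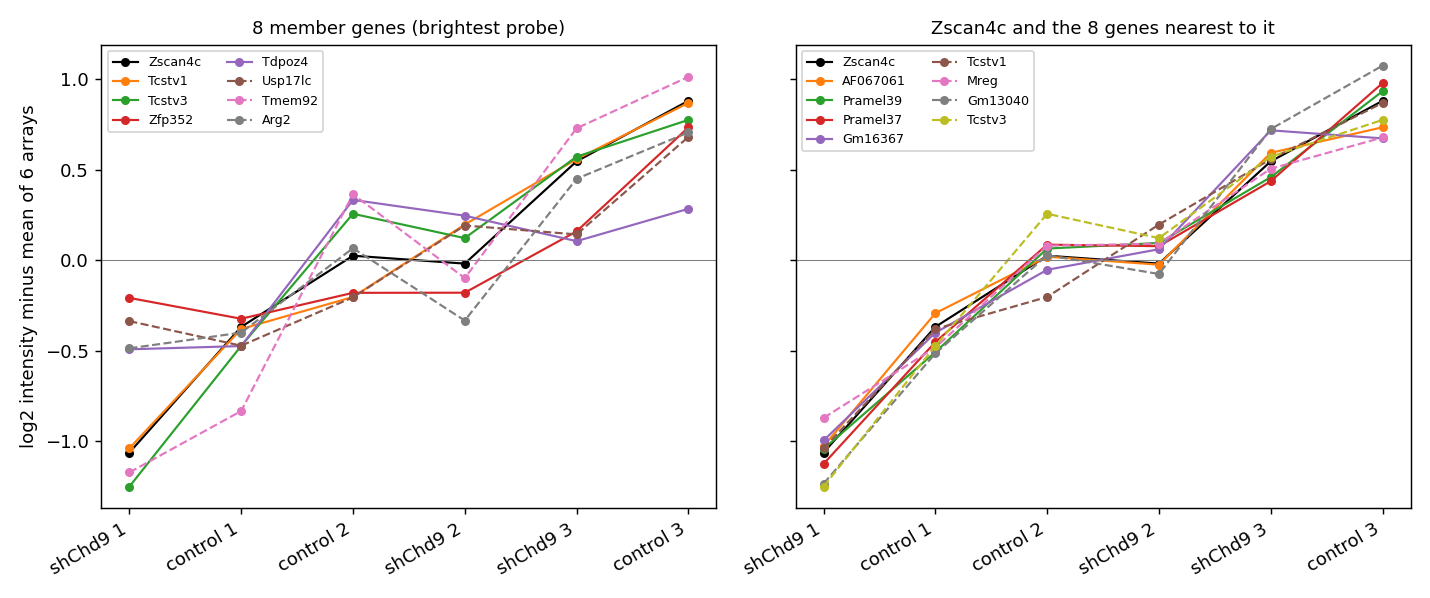
Log2 intensity minus the mean of the 6 arrays is plotted for the 8 member genes (left) and for Zscan4c with the 8 genes nearest to it (right), 1 line per gene. The arrays run shChd9 1, control 1, control 2, shChd9 2, shChd9 3, control 3. Zscan4c rises along them except from control 2 to shChd9 2. The left lines run from as low as -1.25 on shChd9 array 1 to as high as 1.01 on control array 3, and the 8 genes on the right were chosen for their closeness.

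Other genes of the 2-cell-like state, from a list of 82 without the 10 above, likewise held no gene that passed the test. Of 40 on the array 25 were tested. Of these 0 were called, against 0% of all genes tested, and limma gave an unadjusted p below 0.05 for 0 of them, against 5.14%. A log2 fold change below 0 was found for 19 of the 25, against 50.9% of all genes, with a median of -0.16 and a range of -0.67 to 0.32. The 2 smallest p-values belonged to AA792892 and Zfp750. AA792892 was not detected on any shChd9 array, which bounds it at no less than 1.08-fold lower there on average, before allowing for the spread between arrays (limma, adjusted p = 0.925). Its measured means were 4.94 in the control group and 4.64 in the shChd9 group (log2 intensity), and these groups did not overlap, as in 10.5% of all genes tested. Zfp750, a zinc finger gene, had a log2 fold change of -0.34 ± 0.18 (SE).

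Part of this list varied between arrays as much as the dim Zscan4c probe. In 12 of the 25 genes the SD over all 6 arrays reached 0.44, that of the dim Zscan4c probe, against 7.82% of all genes tested. These were Pramel31, Pramel16, AF067061, Lmx1a, Pramel17, Gm5662, Usp26, Pramel19, AF067063, Tdpoz8, Gm16367 and Ubtfl1. Of all 25, 11 were lowest on shChd9 array 1, against 19.3% of all genes, and 10 were highest on control array 3, against 15%. Both held for 6, against 4.52%. Of the 12, chosen here for their spread, 9 were lowest on shChd9 array 1 and 7 were highest on control array 3. Both held for 5. The choice used these same values, and other genes of like spread were not compared, so the counts of the 12 are description only. The whole list was written with earlier results of these data known, so the counts of the 25 are description too. Pramel16 measured 8.06, 8.47 and 9.43 in the control group and 6.82, 8.19 and 8.96 in the shChd9 group (log2 intensity), a 6.11-fold span. Gm5662 measured 10.10, 9.99 and 11.03 in the control group and 9.17, 10.25 and 10.95 in the shChd9 group. Usp26, a ubiquitin-specific protease gene, measured 5.75, 7.03 and 7.32 in the control group and 5.96, 7.17 and 7.73 in the shChd9 group, with its highest value in a shChd9 sample. Zscan4a, Zscan4b and Zscan4e were also on the list and had no probe of their own.

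Factors that restrain the 2-cell-like state did not pass the test. Of 36 measured repressors 0 were called in limma, against 0% of all genes, while 1 reached an unadjusted p below 0.05, against 5.14%. This was Chaf1b, a subunit of the histone chaperone CAF-1, with a log2 fold change of -0.35 ± 0.15 (SE, limma adjusted p = 0.922). Its groups did not overlap, as in 10.5% of all genes tested. Usp7, a deubiquitinating enzyme, had a log2 fold change of -0.36 ± 0.17. Trim28, a corepressor of endogenous retroviruses, measured 14.07 ± 0.12 in the control group and 14.13 ± 0.06 in the shChd9 group (log2 intensity, SD, n = 3 each). Sumo2, whose protein is attached to repressors of this state, had a log2 fold change of -0.060 ± 0.18. The median over the 36 was -0.062 and their median pooled SD within groups was 0.18, beside 0.63 for the 8 member genes.

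Of 9 measured genes listed as activators, 0 were called (limma, against 0% of all genes) while 1 of the 9 reached an unadjusted p below 0.05, against 5.14%. This was Tdrd12, a Tudor-domain gene, which had a log2 fold change of -0.55 ± 0.21 (SE, adjusted p = 0.911). Dppa4, which with Dppa2 acts upstream of Dux, measured 12.85 ± 0.15 in the control group and 12.93 ± 0.17 in the shChd9 group (log2 intensity, SD, n = 3 each). Nelfa, a subunit of the negative elongation factor, measured 10.34, 10.45 and 10.70 in the control group and 9.79, 10.23 and 10.55 in the shChd9 group. It too was lowest on shChd9 array 1 and highest on control array 3, over a range of 0.92. Both held for this 1 of the 9 activators and for 3 of the 36 repressors, against 4.52% of all genes tested. Lowest on shChd9 array 1 were 4 of the 9 and 9 of the 36, against 19.3%. Highest on control array 3 were 1 of the 9 and 5 of the 36, against 15%. The annotation names no probe for Dux.

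The arrays also differed in their level of feeder cell markers, whose part in the results above was not tested. The covariate fit given above does not show it. Of 32 feeder fibroblast markers 30 were on the array and 26 were tested. Limma called 0 of the 26 and gave an unadjusted p below 0.05 for 3, all higher, against 5.14% of all genes tested. Probes for the collagens Col1a2, Col3a1 and Col5a2 were detected on 1, 2 and 1 of the 6 arrays and that for Postn on 0, whereas Col1a1 was detected on 6. The mean of the 26 was 8.66, 7.59 and 8.19 in the control group and 9.17, 7.95 and 8.45 in the shChd9 group (log2 intensity), and their summed linear signal ranged from 13797 to 22969 in control and from 17521 to 32236 in the shChd9 group. shChd9 array 1 had the highest feeder mean and the lowest member mean, 7.29. The array with the lowest feeder mean was control array 2, whose member mean of 8.10 was in the middle, whereas the highest member mean, 8.79, was on control array 3. The 15 stem cell markers, all detected on all 6 arrays, averaged 10.80, 10.95 and 10.77 in the control group and 10.68, 10.83 and 10.67 in the shChd9 group. Of the 15, 9 had a log2 fold change below 0, against 50.9% of all genes tested, with a median of -0.15. Limma called 0 of these markers and gave an unadjusted p below 0.05 for 1, against 5.14%. Their mean was 10.68 on shChd9 array 1 and 10.67 on shChd9 array 3, the lowest array and the second highest for the member genes. Pou5f1, the pluripotency factor Oct4, measured 12.24, 12.15 and 11.89 in the control group and 12.18, 12.36 and 12.02 in the shChd9 group (log2 intensity). Nanog and Zfp42, also markers of naive stem cells, had log2 fold changes of -0.29 ± 0.18 (SE) and -0.17 ± 0.19, and Col1a1, the feeder collagen, one of 0.39 ± 0.26.

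**Figure D5:**
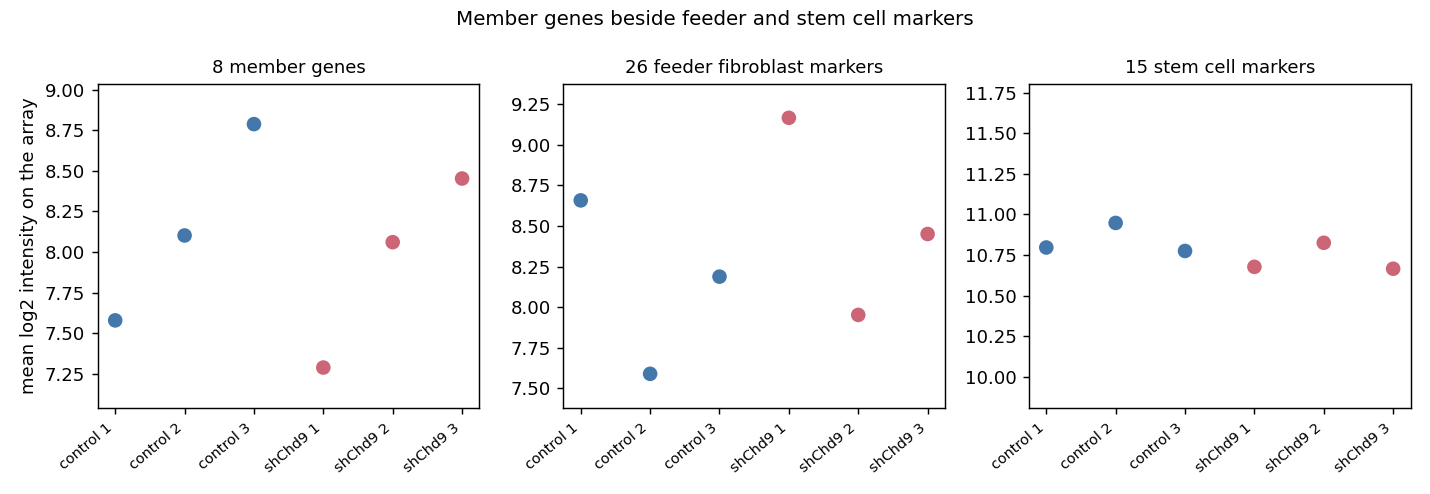
The mean log2 intensity on each array is plotted for the 8 member genes, 26 feeder markers and 15 stem cell markers, control in blue and shChd9 in red, each axis spanning 2 log2 units. Member means run from 7.29 to 8.79, feeder means from 7.59 to 9.17 and stem cell marker means from 10.67 to 10.95.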

How the data were processed

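Total RNA of 6 samples was hybridised to Illumina bead arrays, 1 per sample. Per the file headers, the authors deposited for 45281 probes an average intensity, not normalized between arrays, together with a p-value of detection. Per the submitters' processing notes GenomeStudio was used, and its settings are not given in the sources used here. A further deposited intensity table, linear and not centred, was found to be quantile normalized (column medians from 111.368 to 111.400) and served as an alternative.

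Gene names came from the platform's annotation, updated through Entrez identifiers with RefSeq. A single name was given to 34885 probes, several to 18 and none to 10378. Background correction, quantile normalization and log2 used neqc of limma 3.58.1 (R 4.3.3), which here took its negative controls from the detection p-values and an offset of 16. Testing required detection at p under 0.05 on 3 or more of the 6 arrays, which 17719 probes met. The fits were lmFit and eBayes. Tests were two-sided, and the Benjamini-Hochberg adjustment ran over every tested probe. A gene was represented by its brightest probe in lists, and Zscan4c and Tmem92 had 2 probes each. The procedure was tested on simulated data. Depth has no counterpart on arrays, and 3 arrays per group limit the precision.

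The members and lists were chosen with earlier results of these data known, so no list was tested as a set. The text names every member and Chd9 probe. From each list it names the 2 genes with the smallest p and the 2 with the highest mean, and from the 2-cell-like list every gene as variable as the dimmer Zscan4c probe. It adds the 8 genes nearest to Zscan4c and a few markers of stem cells and feeders. Values of Pramel16 and Usp26 are given as examples chosen after they were seen. Where a gene was not detected in a group, its bound compares the other group's mean with the lowest detected signal of each array, or with the gene's own signal where that was higher. Promoter sequences and their coordinates are from a RefSeq table (GRCm38.p6), and no probe was placed on the genome.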

Additional observations from a re-analysis of the deposited data

How the results depend on the processing

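No alternative that recomputed calls gave one: limma called 0 member probes at an adjusted p under 0.05 among those it could test, and 0 other 2-cell-like genes and 0 regulators. The lowest adjusted p of a member gene over the alternatives was 0.802. The alternatives changed the background correction, the normalization, the filter on dim probes and the variance moderation, took the deposited normalized table or a gene's dimmer probe, added the feeder mean as a covariate, or left out 1 array. Usp17lc, close to 0 in the report, turned to a log2 fold change of 0.014 without background correction, 0.087 with normexp without negative controls, 0.0029 with median scaling and 0.017 in the deposited table. With the feeder covariate Tcstv1 was 0.058, Tdpoz4 0.16, Usp17lc 0.12 and Tmem92 0.021. The cause was not tested. With 1 array left out, the log2 fold change ranged from -0.72 to 0.088 for Zscan4c, from -0.52 to 0.29 for Tcstv1, from -0.75 to 0.16 for Tcstv3, from -0.87 to 0.13 for Tmem92, from -0.54 to 0.043 for Arg2, from -0.35 to 0.18 for Zfp352, from -0.36 to 0.13 for Tdpoz4 and, in the 3 of these fits that tested it, from -0.24 to 0.17 for Usp17lc, and the median of the genes from -0.54 to 0.13. Of the 8 genes nearest to Zscan4c, 8 were kept with normexp without negative controls and 5 each without background correction, with median scaling and in the deposited table. With detection p-values under 0.01 required on all 6 arrays Usp17lc was not tested. No paired analysis was possible because the labels give the groups no shared replicate numbers. Those used here follow the order of deposit, so no fit was blocked on them, although same-numbered arrays stood close to each other. Signal over background limits what the dim probes of Usp17lc, Zfp352 and Tdpoz4 and the dim Zscan4c probe can show.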

Other observations

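Maternal genes of the oocyte, which a 2-cell embryo also carries, were mostly at background in these stem cells. Of 24 on the array 16 were not detected on 3 or more arrays, among them Nlrp5, Bmp15, Zp1, Zp2, Nobox and Oosp1. Of the 8 tested, limma called 0, against 0% of all genes tested, and 0 reached an unadjusted p below 0.05, against 5.14%. Their median log2 fold change was -0.17, beside -0.0045 over all genes tested. Ooep, of the subcortical maternal complex, measured 12.28, 12.73 and 12.58 in the control group and 12.17, 12.51 and 12.36 in the shChd9 group (log2 intensity). Its groups overlapped. Like the bright Zscan4c probe it was lowest on shChd9 array 1, but it was highest on control array 2. Tle6, of the same complex, had a log2 fold change of -0.26 ± 0.22 (SE), and Zp3, an egg coat protein gene, one of -0.26 ± 0.20. Of the 8, 0 were highest on control array 3, against 15% of all genes tested, and 3 were lowest on shChd9 array 1, against 19.3%. A log2 fold change below 0 was found for 6 of the 8, against 50.9%. So few genes cannot set these counts apart from the shares of all genes.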
